A study of Saccharomyces cerevisiae with 8 samples.

Results

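Expression of the genes that make and break down trehalose was followed in wild Malaysian and wine/European *Saccharomyces cerevisiae* and in hybrids between them. The 7 genes were taken by name: the synthesis genes *TPS1*, *TPS2*, *TPS3* and *TSL1*, and the trehalase genes *NTH1*, *NTH2* and *ATH1*. All 7 were among the 5797 genes tabulated for the parents and for the hybrid alleles. The Malaysian parents, listed as MATa/@ HO, were UWOPS03.461.4, the strain UWOPS05.217.3 and the strain UWOPS05.227.2. The wine/European parents were BC187, also MATa/@ HO, and RM11-1, made from RM11-1a and RM11-1b and listed as MATa/@ ura3 ho::kanMX. The 3 hybrids were YHL058 (UWOPS03.461.4 x RM11-1b), YHL063 (UWOPS03.461.4 x BC187) and YHL065 (UWOPS05.217.3 x BC187), all labelled MATa/@ HO. The study's strain list adds lys2/LYS2 and leu2/LEU2 to RM11-1, and gives YHL058, unlike its label, as carrying HO and a ho deletion. Every strain was grown to mid-log phase in YPD, a rich medium with glucose, at 30°, and gave 1 culture and 1 poly-A RNA-seq library. Isolates of a population therefore served as its replicates, and differences between isolates cannot be told apart from differences between cultures. YHL058 and YHL063 shared a Malaysian parent, YHL063 and YHL065 shared BC187, and UWOPS05.227.2 had no hybrid.

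Trehalose is a disaccharide of glucose that yeast builds up when growth slows or under heat and other stress, and it protects membranes and proteins. In the cytosol, Tps1p joins glucose 6-phosphate and UDP-glucose into trehalose 6-phosphate and Tps2p removes the phosphate, in a complex with the regulatory subunits Tps3p and Tsl1p. Neutral trehalase, encoded by *NTH1* with *NTH2* as its paralog, splits the sugar when growth resumes, and acid trehalase, encoded by *ATH1*, acts on trehalose in the vacuole and outside the cell. In laboratory yeast growing fast on glucose, protein kinase A keeps Msn2p and Msn4p out of the nucleus. These are the activators that bind the stress response element of many synthesis genes.

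The promoter stretches of *TPS1*, *TSL1* and *NTH2* are shown because they differ in their number of copies of this element. They were read from the S288C reference, assembly R64 (RefSeq), and are not the sequences of the strains studied. Each stretch runs 5′ to 3′ on the strand of its gene, over 300 bases that end 201 bases before the start codon. Capitals mark the element, AGGGG or its complement CCCCT. The stretches lie at chrII:490593-490892 on the minus strand for *TPS1*, chrXIII:70124-70423 on the plus strand for *TSL1* and chrII:241484-241783 on the minus strand for *NTH2*.
TPS1: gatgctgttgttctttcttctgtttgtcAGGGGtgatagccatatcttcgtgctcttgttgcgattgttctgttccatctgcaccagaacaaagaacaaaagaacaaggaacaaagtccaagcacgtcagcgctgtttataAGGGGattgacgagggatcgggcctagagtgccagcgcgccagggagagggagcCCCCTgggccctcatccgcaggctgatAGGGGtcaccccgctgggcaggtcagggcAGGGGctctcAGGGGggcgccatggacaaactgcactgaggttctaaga
TSL1: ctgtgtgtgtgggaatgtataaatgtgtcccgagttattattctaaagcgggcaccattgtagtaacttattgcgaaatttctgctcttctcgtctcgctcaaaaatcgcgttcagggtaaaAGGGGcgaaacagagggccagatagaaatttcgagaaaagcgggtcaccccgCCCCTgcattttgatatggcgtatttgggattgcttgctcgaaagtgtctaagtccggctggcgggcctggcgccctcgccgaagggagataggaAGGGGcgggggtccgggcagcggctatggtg
NTH2: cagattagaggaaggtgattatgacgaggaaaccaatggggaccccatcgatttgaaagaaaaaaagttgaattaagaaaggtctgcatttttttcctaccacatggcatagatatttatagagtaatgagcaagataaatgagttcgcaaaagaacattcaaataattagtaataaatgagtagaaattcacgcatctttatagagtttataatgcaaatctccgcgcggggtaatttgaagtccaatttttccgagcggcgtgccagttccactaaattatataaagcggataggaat
The *TPS1* stretch held 6 copies, *TSL1* held 3 and *NTH2* held 0. Stretches read in the same way held 4 copies at *TPS2*, 2 at *TPS3* and 1 at *ATH1*. Over 5790 genes of the reference, 22.6% of such stretches held the element at least once, 3.78% held 2 or more copies and 0.864% held 3 or more. A copy is a match of letters, and nothing was measured about binding.

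Each member is a single coding exon in R64 and overlaps no other annotated gene. *TPS1* (YBR126C) lies at chrII:488905-490392, *TPS2* (YDR074W) at chrIV:593893-596583, *TPS3* (YMR261C) at chrXIII:790205-793369 and *TSL1* (YML100W) at chrXIII:70624-73920. *NTH1* (YDR001C) lies at chrIV:450220-452475, *NTH2* (YBR001C) at chrII:238941-241283 and *ATH1* (YPR026W) at chrXVI:615379-619014. *TPS3* and *TSL1* are paralogs whose coding DNA was identical at 67.2% of aligned bases, and *NTH1* and *NTH2* were identical at 72.4%. The longest identical run was 15 bases between *TPS3* and *TSL1* and 33 bases between *NTH1* and *NTH2*. No 100-base window of any member, the length of the reads, occurred again in the reference, so paralogs shared no read of that length there.

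The first question was whether the pathway differed between the populations in rich medium. The values of all 4 synthesis genes were high in UWOPS03.461.4 and UWOPS05.227.2, intermediate or low in UWOPS05.217.3 and RM11-1, and lowest in BC187. On average they stood 2.90-fold to 18.1-fold higher in Malaysian yeast, whereas the 3 trehalase genes stood 1.21-fold to 1.74-fold higher. None of the 7 passed an adjusted *P* of 0.05 in limma, a linear model with a moderated variance fitted on log2(value + 1) to the 5792 genes that averaged 10 or more. Over all genes 10.9% passed, 293 (5.06%) higher and 337 (5.82%) lower in Malaysian yeast. Without adjustment 4 of the 7 had a *P* under 0.05, against 30.5% of all genes. They were the 4 synthesis genes, with higher Malaysian values, as at 15.8% of all genes.

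Values are relative to the other RNAs of a library, so that amounts per cell were not measured. *TPS1*, the synthase that forms trehalose 6-phosphate, had 32274 normalized reads in UWOPS03.461.4, 13495 in UWOPS05.217.3 and 29277 in UWOPS05.227.2, against 3806 in BC187 and 8518 in RM11-1. The lowest Malaysian strain was above both wine/European strains, so the populations did not overlap. The mean was 25015 ± 10089 in Malaysian strains (SD, n = 3) and 6162 ± 3332 in wine/European strains (SD, n = 2). The log2 fold change was 2.04 (standard error 0.50, 95% interval 0.78 to 3.29), with an adjusted *P* of 0.0619 from limma.

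*TPS2*, the phosphatase of the final step, had 48841, 5890 and 45908 normalized reads in the Malaysian strains in the same order, against 1493 in BC187 and 6657 in RM11-1. UWOPS05.217.3 was below RM11-1, so the populations overlapped at this gene. The log2 fold change was 2.91 (standard error 1.12, 95% interval 0.10 to 5.71), with an adjusted *P* of 0.154 from limma.

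*TSL1*, the large regulatory subunit, spanned the widest range of the members on the log scale, with 13940, 1715 and 11747 normalized reads in the Malaysian strains, against 95 in BC187 and 1356 in RM11-1. The populations did not overlap, but UWOPS05.217.3 and RM11-1 were close to each other. In rank, *TSL1* was above 87.6%, 36.7% and 85.4% of genes in the Malaysian strains, against 2.32% in BC187 and 27.6% in RM11-1. The log2 fold change was 4.18 (standard error 1.40, 95% interval 0.69 to 7.67), exceeded by 16 of the 5792 genes. The adjusted *P* was 0.118 from limma.

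*TPS3*, the paralog of *TSL1*, varied less, with 6280, 3125 and 5372 normalized reads in the Malaysian strains, against 1306 in BC187 and 2032 in RM11-1. The populations did not overlap. The log2 fold change was 1.54 (standard error 0.35, 95% interval 0.66 to 2.41), with an adjusted *P* of 0.0509 from limma. *TPS1*, *TPS3* and *TSL1* were thus the 3 members with every Malaysian value above every wine/European value, a pattern that 26.5% of all genes had.

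**Figure D1:**
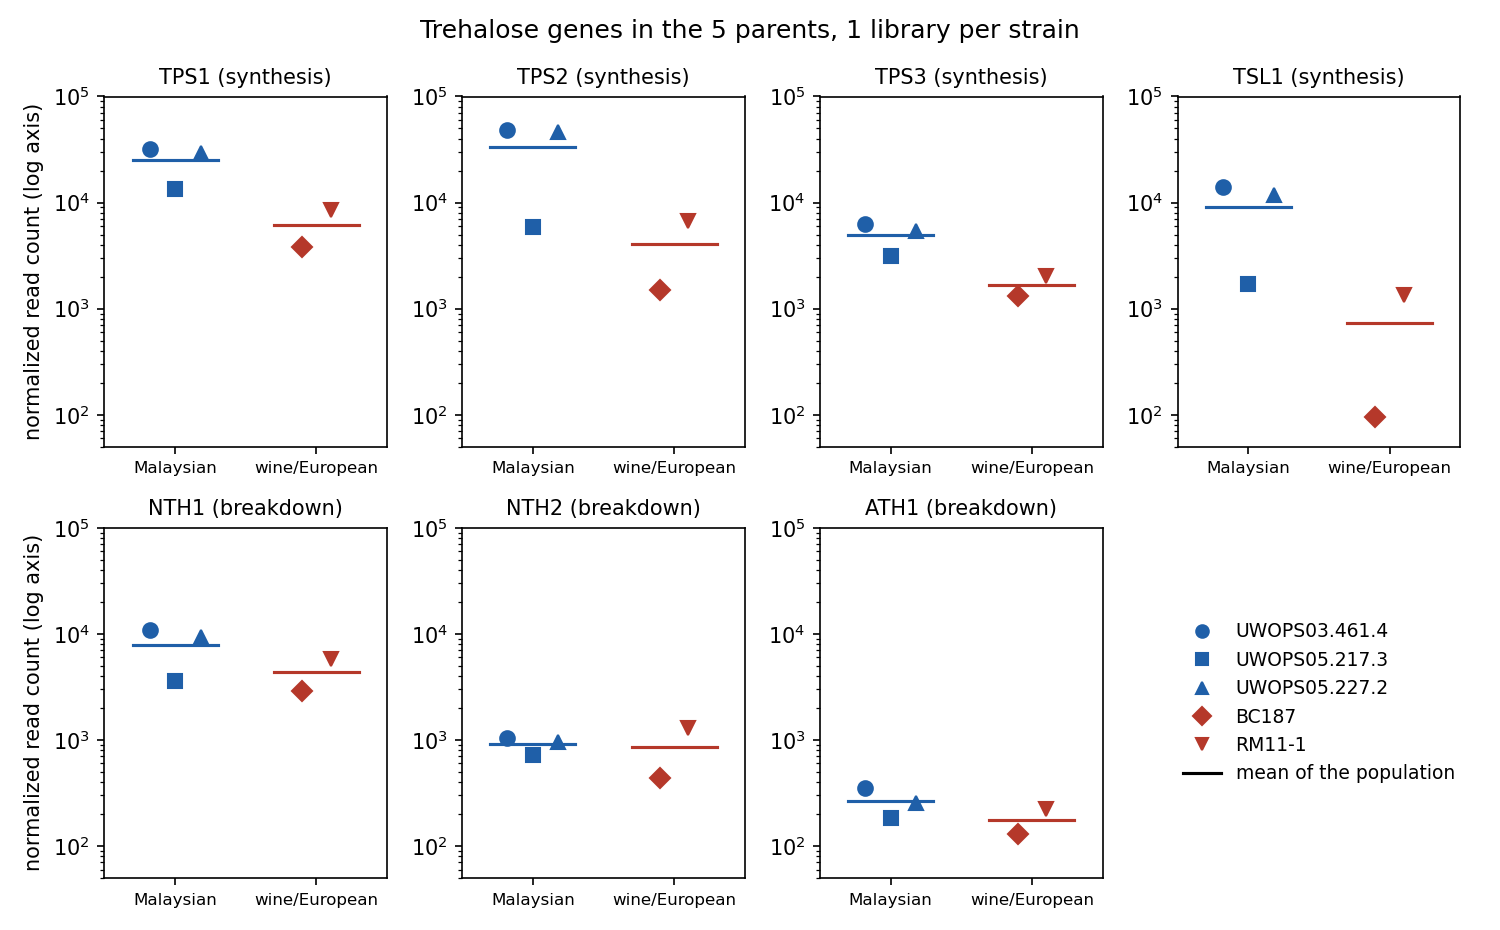
Normalized reads (log scale) of each trehalose gene in the 5 parents, with Malaysian strains left of wine/European strains, 1 point per library and a line at each mean. The synthesis genes spread widest, from 95 reads of *TSL1* in BC187 to 48841 reads of *TPS2* in UWOPS03.461.4, and UWOPS05.217.3 lies nearest to RM11-1 in *TSL1* and *TPS2*.

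Among the trehalases, *NTH1* had 10848, 3590 and 9246 normalized reads in the Malaysian strains, against 2896 in BC187 and 5781 in RM11-1. RM11-1 was above UWOPS05.217.3, and the log2 fold change of 0.80 (standard error 0.55, 95% interval -0.58 to 2.18) had an adjusted *P* of 0.374 from limma. *NTH2* had 1046, 721 and 965 normalized reads in the Malaysian strains, against 433 in BC187 and 1282 in RM11-1, the highest of the 5 parents. Its log2 fold change was 0.27 (standard error 0.47, 95% interval -0.90 to 1.44, adjusted *P* = 0.730 from limma). *ATH1* had the lowest trehalase values, with 352, 184 and 254 normalized reads in the Malaysian strains, against 129 in BC187 and 225 in RM11-1. Its log2 fold change was 0.58 (standard error 0.38, 95% interval -0.36 to 1.51, adjusted *P* = 0.349 from limma). All 3 intervals covered 0, and a change of 1 on the log2 scale lay within each of them.

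The median log2 fold change was 1.54 over the 7 members, 2.47 over the synthesis genes and 0.58 over the trehalases, beside 0.03 over all genes tested. The synthesis calls turned on single strains. Without UWOPS05.217.3, *TPS1* (log2 2.43, adjusted *P* = 0.0422) and *TPS3* (log2 1.83, adjusted *P* = 0.0299) passed in limma. Without RM11-1, *TPS1* (adjusted *P* = 0.0408), *TPS3* (adjusted *P* = 0.0482) and *TSL1* (log2 6.09, adjusted *P* = 0.0426) passed. Without BC187, the log2 fold change of *TSL1* was 2.27 and that of *TPS2* 1.83, no member passed, and the log2 fold change of *NTH2* was -0.51. Over all genes the number that passed was 497 without UWOPS05.217.3, 1011 without RM11-1 and 695 without BC187.

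The spread within each population was the second feature, and it was not particular to this pathway. The glycogen synthase gene *GSY1* had 6373, 345 and 6520 normalized reads in the Malaysian strains, against 64 in BC187 and 596 in RM11-1. The glycogen gene *GLG2* did not share the low value of UWOPS05.217.3, with 1965, 2070 and 1974 in the Malaysian strains. UWOPS05.217.3 was below the log2 mean of the other Malaysian strains at all 7 members, where 60.6% of all genes were below it. At all 7 it was also below each of those strains, which was not counted over all genes. On the log2 scale, UWOPS05.217.3 minus the mean of the other Malaysian strains was -3.01 for *TPS2* and -2.90 for *TSL1*, and only 9 and 12 of the 5792 genes had lower differences than these. It was -1.48 for *NTH1*, -1.19 for *TPS1*, -0.89 for *TPS3*, -0.70 for *ATH1* and -0.48 for *NTH2*, while the median size of this difference over all genes was 0.16. With 1 library per strain this difference has no test. UWOPS03.461.4 and UWOPS05.227.2 stood close to each other, with log2 differences between 0.09 for *TPS2* and 0.47 for *ATH1*.

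BC187 in turn had lower values than RM11-1 at all 7 members, where 58.8% of all genes were lower in BC187. The log2 difference, BC187 minus RM11-1, was -3.82 for *TSL1*, with 15 of 5792 genes lower, and -2.16 for *TPS2*. It was -1.56 for *NTH2*, -1.16 for *TPS1*, -0.997 for *NTH1*, -0.80 for *ATH1* and -0.64 for *TPS3*. *NTH2* thus had a larger gap between the wine/European strains than *TPS1*, although the log2 fold change between the populations was 0.27 for *NTH2* and 2.04 for *TPS1*.

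At each synthesis gene, the nearest pair across the populations was UWOPS05.217.3 and RM11-1, which did not hold for any trehalase. On the log2 scale, UWOPS05.217.3 minus RM11-1 was 0.66 for *TPS1*, 0.62 for *TPS3* and 0.34 for *TSL1*. It was -0.18 for *TPS2*, -0.29 for *ATH1*, -0.69 for *NTH1* and -0.83 for *NTH2*. For UWOPS03.461.4 minus BC187, the widest pair, the same values lay between 1.27 for *NTH2* and 7.18 for *TSL1*. The SD of the log2 values over the 5 parents was 2.91 for *TSL1*, exceeded by 0.414% of genes, 2.15 for *TPS2*, 1.28 for *TPS1*, 0.95 for *TPS3*, 0.83 for *NTH1*, 0.61 for *NTH2* and 0.54 for *ATH1*.

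Levels of different members can be set side by side per kilobase of coding sequence. On this scale *TPS1* was the highest member in every parent, at 21690, 9069 and 19675 normalized reads per kilobase in the Malaysian strains, against 2558 in BC187 and 5724 in RM11-1. *ATH1* was between 50.6 and 96.8 per kilobase in the Malaysian strains, against 35.5 in BC187 and 61.9 in RM11-1. *NTH1* made up 81.6% to 89.8% of the summed trehalase level in the Malaysian strains, against 85.4% in BC187 and 80.8% in RM11-1. The trehalase side was thus mostly *NTH1* in every parent. The summed level of the synthesis genes over that of the trehalase genes was 8.60, 6.55 and 9.17 in the Malaysian strains, against 2.36 in BC187 and 2.92 in RM11-1. The Malaysian strains were therefore all above the wine/European strains in this ratio, UWOPS05.217.3 included, although its synthesis sum of 12766 per kilobase was near the 9252 of RM11-1. The ratio of *TPS1* to *NTH1* alone was 4.51, 5.70 and 4.80 in the Malaysian strains, against 1.99 in BC187 and 2.23 in RM11-1. The balance between the regulatory subunits did not divide the populations in this way, since *TSL1* over *TPS3* was 2.13, 0.527 and 2.10 in the Malaysian strains, against 0.0698 in BC187 and 0.641 in RM11-1. No *P* is given for these ratios because the members were chosen with results of these data known. How often ratios of other genes divide the populations was not counted. Among single genes, 26.5% had every Malaysian value above every wine/European value.

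The hybrids ask how the alleles of both parents are expressed in the same cell. Only reads over polymorphisms between the parents were counted for an allele, so allele values of different genes are not levels that can be compared. The alleles of every synthesis gene overlapped over the hybrids, and no member passed an adjusted *P* of 0.05 in limma when alleles were compared without pairing, while 4.71% of the 5738 genes tested did. Without adjustment *NTH1* alone of the 7 had a *P* under 0.05, against 17.6% of all genes and 8.73% with a lower Malaysian allele. The median log2 ratio of the 7 members was 0.04.

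*TPS1* had 1799, 2003 and 2142 normalized reads from the Malaysian allele in YHL058, YHL063 and YHL065, against 2043, 2039 and 2257 from the wine/European allele. The log2 ratio was -0.09 (standard error 0.11, 95% interval -0.37 to 0.18, adjusted *P* = 0.815 from limma). *TPS3* had 890, 654 and 713 from the Malaysian allele, against 702, 647 and 689 from the wine/European allele. Its log2 ratio was 0.14 (95% interval -0.22 to 0.49, adjusted *P* = 0.780 from limma).

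*TPS2* had 580, 635 and 865 normalized reads from the Malaysian allele, against 775, 496 and 567 from the wine/European allele. The Malaysian allele was the lower one in YHL058 and the higher one in both hybrids with BC187, and the log2 ratio was 0.18 (95% interval -0.36 to 0.73, adjusted *P* = 0.834 from limma). *TSL1* had only 23, 35 and 29 normalized reads from the Malaysian allele, against 30, 30 and 36 from the wine/European allele. Its log2 ratio was -0.15 (95% interval -0.84 to 0.54, adjusted *P* = 0.928 from limma).

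*NTH1* was the member whose alleles did not overlap over the hybrids. It had 183, 359 and 342 normalized reads from the Malaysian allele in YHL058, YHL063 and YHL065, against 373, 505 and 628 from the wine/European allele. The highest Malaysian value was below the lowest wine/European value, as at 11.3% of all genes. The Malaysian allele was the lower one in 3 of 3 hybrids, as at 28.1% of all genes, and gave 32.9%, 41.6% and 35.3% of the *NTH1* allele reads. The log2 ratio was -0.80 (standard error 0.32, 95% interval -1.57 to -0.03), with an adjusted *P* of 0.267 from limma without pairing. Both alleles of a hybrid were read from 1 library, and when they were paired by hybrid the log2 ratio of -0.80 (standard error 0.13, 95% interval -1.14 to -0.45) passed, with an adjusted *P* of 0.0246 from limma. In the paired comparison 17.9% of all genes passed, 509 of them (8.87%) with a lower Malaysian allele, and *NTH1* was the 1 member of 7. With 2 hybrids left, the paired adjusted *P* of *NTH1* was 0.0589 when YHL058 was left out, 0.0880 for YHL063 and 0.0776 for YHL065.

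The other trehalases gave no call in either comparison. *NTH2* had 112, 153 and 86 normalized reads from the Malaysian allele, against 99, 126 and 109 from the wine/European allele, with a log2 ratio of 0.04 (95% interval -0.58 to 0.65, adjusted *P* = 0.992 from limma). *ATH1* had 44, 63 and 107 from the Malaysian allele, against 29, 62 and 36 from the wine/European allele, with a log2 ratio of 0.72 (95% interval -0.32 to 1.76, adjusted *P* = 0.499 from limma). The *ATH1* alleles were equal within 1 normalized read in YHL063 and furthest apart in YHL065.

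**Figure D2:**
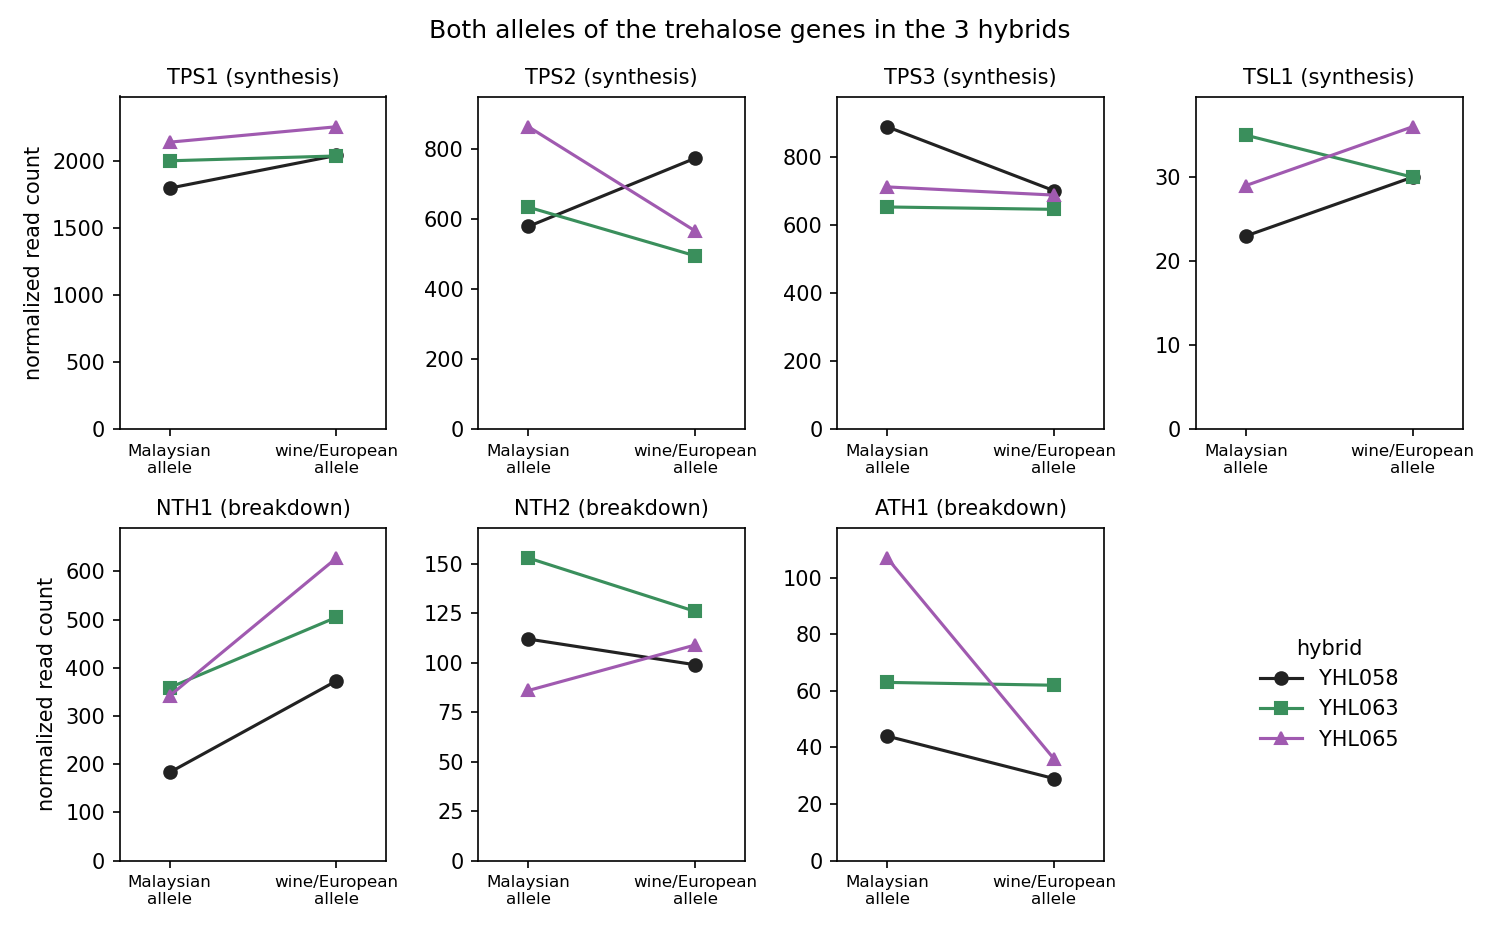
Normalized reads (linear axis from 0) from the Malaysian allele (left point) and the wine/European allele (right point) of each trehalose gene, joined by a line for each of the 3 hybrids. At *NTH1* the line of every hybrid runs upward to the wine/European allele, and at *TPS1* the lines are nearly flat between 1799 and 2257 reads.

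The parental and allelic differences of the same strains can be set beside each other, although the tables were normalized separately and the difference between them was not tested. For UWOPS03.461.4 and BC187, the log2 difference of *TSL1* was 7.18 between the parents and 0.22 between their alleles in YHL063. For *TPS2* it was 5.03 between these parents and 0.36 between the alleles, for *TPS1* 3.08 and -0.03, and for *TPS3* 2.26 and 0.02. For UWOPS03.461.4 and RM11-1, *TSL1* differed by 3.36 between the parents and by -0.37 between the alleles in YHL058. The *TSL1* alleles had few normalized reads, 35 Malaysian against 30 wine/European in YHL063 and 23 against 30 in YHL058. In all 3 hybrids the synthesis genes had allelic differences within 0.61 of 0, where their parental differences were between 1.26 and 7.18.

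*NTH1* had opposite signs in the parents and the alleles. Its log2 difference between the parents of YHL058 was 0.91, and that between the alleles in YHL058 was -1.02. The parental and allelic values were 1.90 and -0.49 for YHL063, and 0.31 and -0.87 for YHL065. Each Malaysian parent thus had more *NTH1* reads than the wine/European parent it was crossed to, while its allele had fewer in the hybrid. UWOPS05.217.3 and RM11-1, which were not crossed, differed by -0.69. A reversal in every hybrid was not particular to *NTH1*, since *MSN4* and *TPK2* had it too, and its share over all genes was not counted. The parental difference of *NTH1* did not pass the test.

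**Figure D3:**
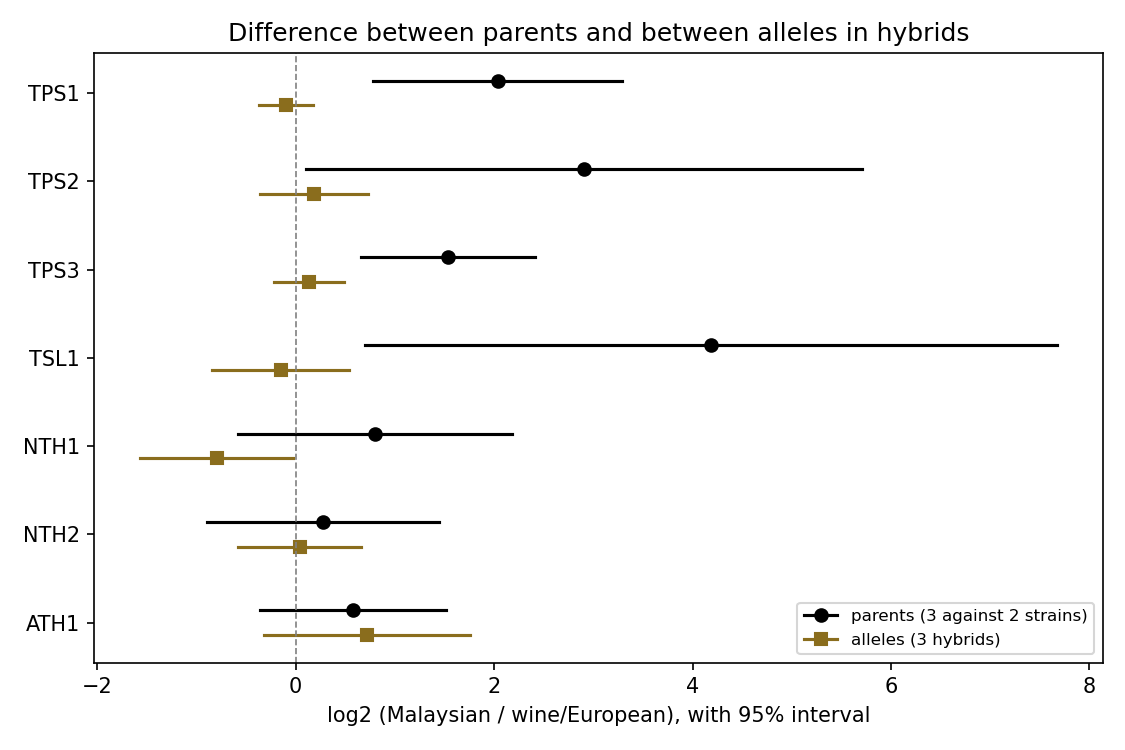
Log2 difference, Malaysian minus wine/European, of each trehalose gene between the parents and between the hybrid alleles, with 95% intervals from limma without pairing. The parental estimates of *TSL1* (4.18), *TPS2* (2.91), *TPS1* (2.04) and *TPS3* (1.54) lie above 0, while their allelic estimates lie between -0.15 and 0.18, and *NTH1* is at 0.80 in the parents and -0.80 in the alleles.

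Genes around the pathway were counted in lists of enzymes and regulators, to be read beside the 5.06% of all genes that rose and the 5.82% that fell between the parents. Of the 7 genes that supply glucose phosphates and UDP-glucose, *UGP1* rose in Malaysian yeast and 0 fell, by limma at an adjusted *P* under 0.05. *UGP1* makes UDP-glucose, the glucose donor of trehalose and glycogen, and had 29785, 23239 and 31092 normalized reads in the Malaysian strains, against 7441 in BC187 and 10155 in RM11-1. Here UWOPS05.217.3 stood with the other Malaysian strains, and its log2 fold change of 1.68 ± 0.20 (standard error) had an adjusted *P* of 0.00996 from limma. It did not pass without UWOPS03.461.4 (0.0566) or with UWOPS05.227.2 left out (0.0553). Between the alleles, *UGP1* had 2650, 2483 and 2344 reads from the Malaysian allele, against 1867, 1798 and 1876 from the wine/European allele. That log2 ratio of 0.43 had an adjusted *P* of 0.0701 without pairing and 0.0179 with it, both from limma, and the hexokinase family member *GLK1* (log2 ratio 0.48) also passed with pairing, at an adjusted *P* of 0.0245. With pairing, *UGP1* lost its call when YHL058 (0.0528) or YHL063 (0.150) was left out, and *GLK1* when YHL063 (0.173) or YHL065 (0.0680) was. The median log2 fold change of the supply genes was 1.49 between the parents and 0.05 between the alleles.

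Of 7 glycogen genes, *GLG2*, a primer of glycogen synthesis, rose in Malaysian yeast (log2 0.79, adjusted *P* = 0.0154 from limma) and 0 fell, with a median log2 fold change of 1.73. *GLG2* did not pass when UWOPS03.461.4 (0.0912) or UWOPS05.227.2 (0.0911) was left out. Without UWOPS05.217.3, 3 of the 7 supply genes and 3 of the 7 glycogen genes passed, beside 497 of all genes tested. Between the alleles 0 of the 7 glycogen genes passed in limma without pairing, 1 had an unadjusted *P* under 0.05, and the median log2 ratio was 0.32. That gene, *GPH1*, which encodes glycogen phosphorylase, passed with pairing (log2 ratio 1.17, adjusted *P* = 0.0337 from limma), and lost that call when any hybrid was left out, at adjusted *P* values of 0.0724 to 0.131.

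**Figure D4:**
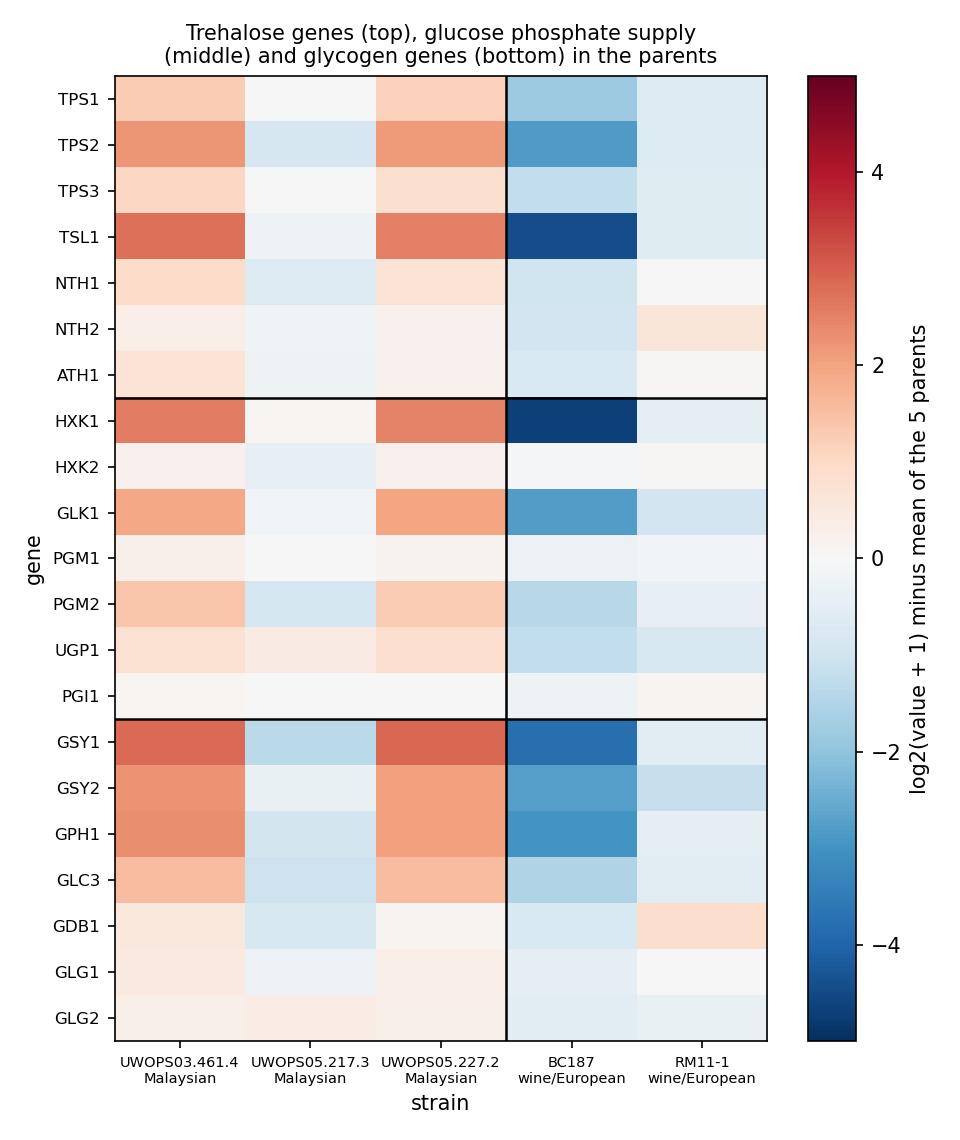
Log2(value + 1) of the trehalose, glucose phosphate supply and glycogen genes in each parent, centred on the mean of the 5 parents of each gene (red above it, blue below it). UWOPS03.461.4 and UWOPS05.227.2 are red and BC187 is blue at most genes, with the lowest cells at -4.42 for *TSL1* and -4.67 for *HXK1* in BC187, and *HXK2*, *PGM1* and *PGI1* are pale in every strain.

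The list of regulators held 9 genes, with the transporter gene *MAL11* among them. Of these 9 genes, *MSN2* rose in Malaysian yeast and 0 fell, beside 5.06% and 5.82% of all genes, with a median log2 fold change of 0.55. *MSN2*, the stress activator named above, had 3535, 3528 and 3730 normalized reads in the Malaysian strains, against 2144 in BC187 and 2366 in RM11-1 (log2 0.67, standard error 0.10, adjusted *P* = 0.0178 from limma). With UWOPS03.461.4 left out the adjusted *P* was 0.102, and with UWOPS05.227.2 left out it was 0.108.

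Between the alleles 2 of the 9 genes in the list of regulators passed without pairing, beside 4.71% of all genes. *RIM15*, a kinase that acts when growth slows, had the higher Malaysian allele (log2 ratio 0.81, adjusted *P* = 0.0403 from limma), and *BMH2*, which encodes an adaptor that binds phosphorylated Nth1p, the lower one (log2 ratio -0.73, adjusted *P* = 0.0333 from limma). Without pairing, *BMH2* lost its call when any hybrid was left out, at adjusted *P* values between 0.111 and 0.426. *RIM15* then lost it without YHL063 (0.495) or YHL065 (0.225). With pairing, *BMH2* (adjusted *P* = 0.0130 from limma) lost its call only without YHL063 (0.113). *RIM15* (paired adjusted *P* = 0.0220 from limma) lost it without YHL063 (0.146) or YHL065 (0.0719). *MSN4* (log2 ratio -0.84, adjusted *P* = 0.0153 from limma) passed with pairing as well, but not without YHL063 (0.143). Between the parents, *BMH2* had a log2 fold change of 0.02 (95% interval -0.34 to 0.39).

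Stress genes and genes of growth without glucose were set beside the members as measures of the state of the cultures. Of 10 stress genes, *HSP12*, *CTT1*, *SSA4* and *ALD3* rose in Malaysian yeast, beside 5.06% of all genes, and 0 fell, with a median log2 fold change of 0.70. *HSP12*, a membrane stress protein, had 12567, 8152 and 13554 normalized reads in the Malaysian strains, against 2274 in BC187 and 2699 in RM11-1 (log2 2.17, adjusted *P* = 0.00882 from limma). The cytosolic catalase *CTT1* had 3724, 1393 and 3719, against 213 and 557 in the same order (log2 2.96, adjusted *P* = 0.0376 from limma), so UWOPS05.217.3 was again the lowest Malaysian strain. *HSP12* passed without any 1 strain, at adjusted *P* values up to 0.0497, while *CTT1* had no call without UWOPS03.461.4 (0.136), UWOPS05.227.2 (0.137) or BC187 (0.0921). Leaving out 1 parent at a time gave log2 fold changes of 2.03 to 2.40 for *HSP12* and 2.27 to 3.65 for *CTT1*. *ALD3* (log2 1.17, adjusted *P* = 0.0361 from limma) and *SSA4* (log2 0.58, adjusted *P* = 0.0360 from limma) had no call without any 1 of the Malaysian strains or without BC187, and *SSA4* had none under quantile normalization (0.0660). Between the alleles, *HSP12* (log2 ratio 0.14) and *CTT1* (log2 ratio 0.0043) did not pass.

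Of 6 genes of growth without glucose, 0 rose and *ICL1*, isocitrate lyase of the glyoxylate cycle, fell (log2 -0.65, adjusted *P* = 0.0415 from limma), with a median log2 fold change of 0.37. *ICL1* had 842, 734 and 716 normalized reads in the Malaysian strains, against 1115 in BC187 and 1276 in RM11-1, and it had no call without any 1 Malaysian strain or without RM11-1. Between the alleles *ADH2*, an alcohol dehydrogenase repressed by glucose, passed with pairing alone (log2 ratio 0.63, adjusted *P* = 0.0202 from limma), but not when YHL058 (0.0596) or YHL063 (0.143) was left out. The part of the state of the cultures in the differences of the trehalose genes was not tested.

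The genes most like the most variable member of each side were sought over all 5738 genes tested in both tables, by the root mean square difference of their log2 values over the 11 columns, centred within each table. For *TSL1* they were the hexokinase *HXK1* (0.350), the glycogen synthase *GSY1* (0.572) and *TPS2* (0.610), where the median over all genes was 1.77. *HXK1* had 25835, 4625 and 24087 normalized reads in the Malaysian strains, against 169 in BC187 and 3119 in RM11-1. Its order of strains was that of *TSL1*, but *HXK1* was picked by likeness to *TSL1* in these same values. For *NTH1* they were *TPK2*, a catalytic subunit of protein kinase A (0.281), *SPI1*, a cell wall protein (0.318), and *GIP3* (0.339), where the median was 0.679. *TPS1*, *TPS3* and *TSL1* ranked the 5 parents in 1 order, UWOPS03.461.4, UWOPS05.227.2, UWOPS05.217.3, RM11-1 and BC187, which 6.08% of all genes shared. This order was taken from the values of *TPS1*. With UWOPS03.461.4 or UWOPS05.227.2 allowed on top, 11.2% of all genes shared it.

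The deposited values of a table share an upper quartile of 6442 in the 5 parents and 2010 in the 6 allele columns, so that the depth of a library can no longer be read from them, and sums over all genes were between 63253487 and 67038479 in the parents. Of the genes that the labels list as altered in RM11-1, *HO* was at 0 in RM11-1 and between 51 and 127 in the other parents. *URA3* was at 101 in RM11-1 and between 21 and 32 in the other parents, and which ura3 allele RM11-1 carries was not given in the sources used here.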

How the data were processed

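RNA-seq was carried out on 8 libraries: 5 parents and 3 hybrids. According to the study's methods and the submitters' processing notes, 100-base paired reads were mapped with Bowtie (0.12.7) to strain genomes amended with polymorphisms, those of hybrids to the sequences of both parents together, and uniquely mapping reads without mismatches were counted per gene with the authors' own scripts. The version of the S288C sequence behind them and the strand of counting were not given in the sources used here. The authors normalized the counts with EDASeq, by GC content and upper quartile, and deposited them as whole numbers in 1 table of parents and 1 of alleles. These deposited values are a normalized score on the scale of reads, hold no depth and fit no count model. Normalization by upper quartile assumes that most genes do not differ between libraries. The DESeq columns of the authors (means, fold changes and *P* values) were not used. All value columns of both tables were assigned to a sample.

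Genes that averaged 10 or more were tested in limma (3.58.1, R 4.3.3), by lmFit and eBayes with a trend, on log2(value + 1), which understates changes of low genes. The Benjamini-Hochberg adjustment covered all genes of a table, and the threshold was an adjusted *P* of 0.05. Alleles were unpaired, after the study's methods. Pairing by hybrid was an alternative, since both alleles come from 1 library, and deviations of the 2 alleles from their group means correlated at 0.669, 0.541 and 0.476 in YHL058, YHL063 and YHL065. The method was tested on simulated data. All 7 members passed the minimum in both tables. The members and the gene lists were chosen with earlier results of these data known. All members were named, with list genes past the threshold, and the 3 genes nearest to the most variable synthesis gene and trehalase gene. List genes that passed in the paired comparison, *HSP26* and *HSP104*, and *HXK2*, *PGM1* and *PGI1* in the heat map, were chosen for naming with their values in view. Some items of the gene lists and promoters are not reported here. The R64 annotation held 5792 of the identifiers. Sequences and lengths were computed with Python 3.11.15, pandas 2.3.3, numpy 2.4.6 and biopython 1.88, and figures with matplotlib 3.10.9. Alternatives were a pseudocount of 10 or 0.5, no minimum or a mean of 100, median-ratio rescaling, quantile normalization, no trend, and leaving out each library.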

Additional observations from a re-analysis of the deposited data

How the results depend on the processing

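With 1 library per strain, 2 wine/European parents and values that hold no depth, the intervals of the members are wide and calls near the threshold shift with single strains. The study's read statistics list far fewer uniquely mapping reads for YHL065 than for any other library. A lone wine/European strain was assumed to vary like the other strains. Leaving out 1 parent gave 107 to 1011 genes called, 0 to 3 of the 7 members called, and log2 fold changes of -0.51 to 1.05 for *NTH2* and -0.13 to 0.18 for *BMH2*. The count was lowest when UWOPS03.461.4 (107) or UWOPS05.227.2 (112) was left out and highest without RM11-1. Leaving out 1 hybrid gave 12 to 155 allelic calls (12 without YHL063) and a median log2 ratio of the members of -0.081 without YHL063, -0.031 without YHL065 and -0.030 without YHL058, paired or not. The log2 ratios were then -0.081 to 0.23 for *NTH2* (-0.030 without YHL058), -0.031 to 0.48 for *TPS2*, -0.14 to 0.094 for *CTT1*, -0.026 to 0.0045 for *SSA4*, -0.11 to 0.064 for *GLG2* and -0.020 to 0.26 for *HSP12*, in both kinds of comparison. The alleles paired by hybrid gave 1026 calls and 1 member, *NTH1*, and 675, 55 and 710 calls when YHL058, YHL063 and YHL065 were left out in turn. Among the members, pairing changed no other call. Median-ratio rescaling gave 1 member, *TPS3* (adjusted *P* = 0.0460 from limma), and a *BMH2* value of -0.0021, which was -6.0e-06 under quantile normalization. Other pseudocounts, minimums, scalings and no trend kept the direction of every member and gave 557 to 706 calls between the parents. The causes were not tested.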
